A study of Mus musculus with 2 samples.

Results

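The genes described here are 10 genes of the platelet and megakaryocyte programme, *Vwf*, *Gp1ba*, *Gp1bb*, *Gp9*, *Itga2b*, *Itgb3*, *Gp6*, *Pf4*, *Ppbp* and *Treml1*, picked by symbol from the 24421 genes counted in hematopoietic stem cells (HSCs). RNA-seq was performed on 1 library labelled WT (genotype Ezh2 +/+ CreERT+/-) and 1 library labelled Ezh2 KO (genotype Ezh2 Δ/Δ CreERT+/-), both of strain C57BL/6, so both carried the tamoxifen-activated Cre. CD45.2 marrow of either genotype was transplanted into lethally irradiated CD45.1 recipients, which keep their own *Ezh2* outside the graft. Tamoxifen was given at 10 mg/ml in 100 µl daily for 5 days, and HSCs were sorted 1 month later from the lineage-depleted, Sca-1 and c-Kit positive (LSK) compartment as CD150+CD48-CD34-Flt3-. The labels give neither the promoter that drives the Cre nor the age or number of the mice behind each library. With 1 library per group no difference below has a replicate check, and every interval covers the counting error of the reads only. PCR copies were not marked, so reads cannot be counted as separate molecules and the intervals can be too narrow even for counting error.

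Megakaryocytes are the marrow cells that shed platelets. Platelets are caught on a damaged vessel wall by von Willebrand factor, which their GPIb-IX-V receptor complex binds under flow. They are then activated on collagen through glycoprotein VI, clump through the fibrinogen receptor integrin αIIbβ3 and release the contents of their alpha granules. Part of this programme is already transcribed in HSCs, and *Vwf* is a known mark of HSCs biased towards platelets, a bias that grows with age. *Ezh2* encodes the main H3K27 methyltransferase of Polycomb repressive complex 2. The comparison addresses how the RNA of these platelet genes compared between the 2 libraries.

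The libraries held 5763118 (WT) and 4157280 (labelled Ezh2 KO, below the KO-labelled library) gene counts, so the smallest level taken as detectable, 3 counts, was 0.521 and 0.722 CPM (counts scaled to a common library total). *Ezh2* itself had 166 and 129 counts, a log2 ratio of 0.08 (95% interval -0.27 to 0.42), so a lower level was not seen in gene-level counts. Every direction below is therefore given by label only, and the loss of *Ezh2* was not verified from these counts. Of 9 HSC markers, 9 were counted in both libraries, with a summed level of 3846 CPM in WT and 4130 CPM in the KO-labelled library. *Slamf1*, which encodes the sorting marker CD150, had 446.2 and 289.0 normalised counts, a log2 ratio of -0.62 (-0.85 to -0.41). Genes the gate selects against summed to 198.5 CPM in WT and 268.0 CPM in the KO-labelled library, and of the 4 past the filter all had ratios above 0, with a median of 0.62 and 3 intervals above 0. *Itgam*, which encodes the myeloid marker CD11b, was called higher with 73 and 131 counts (log2 ratio 1.27, 0.86 to 1.72). *Flt3* had 98 and 140 counts (0.95, 0.57 to 1.34) and *Cd34* 957 and 829 (0.23, 0.10 to 0.37). *Slamf1*, *Flt3* and *Cd34* are named after their values were seen, and the part of such cells in the platelet results was not tested. *Xist* had 801 and 4 counts, and *Ddx3y*, *Eif2s3y*, *Kdm5d* and *Uty* of the Y chromosome had 0 in WT and 106 to 275 in the other library. The libraries thus differed in the sex of the cells as read from RNA. Sex cannot be told apart from genotype for any gene in this comparison, the platelet genes included.

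Of the 10 genes, 9 were counted in both libraries, at 6.59 CPM or more in each, and 1, *Gp6*, had 0 counts in both. *Vwf* and *Itgb3* were lower in the KO-labelled library by at least 2-fold. *Itga2b*, *Pf4* and *Gp1ba* were lower by a smaller amount, at 62.3%, 63.9% and 65.0% of their WT levels. *Gp9*, *Gp1bb*, *Treml1* and *Ppbp* had intervals that included 0. A gene was called when its normalised count plus 1 differed by at least 2-fold with the 95% interval of the log2 ratio on the same side of 0. By this rule 2 of the 9 genes were called lower and 0 higher. Of all 12588 genes with a mean of at least 1 CPM, 3.27% were called lower and 4.09% higher. With the fold alone and no interval, *Vwf* and *Itgb3* were again the 2 called, beside 3.9% of all genes. Among the 8083 genes averaging 100 normalised counts or more, 0.569% were called lower. The median log2 ratio was -0.62 over the 9 genes and -0.0032 over all genes tested. The interval lay below 0 for 5 of the 9 genes, beside 20.8% of all genes tested and 24.0% of those averaging 100 normalised counts or more. Calls and ratios describe these 2 libraries and not the conditions.

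**Figure D1:**
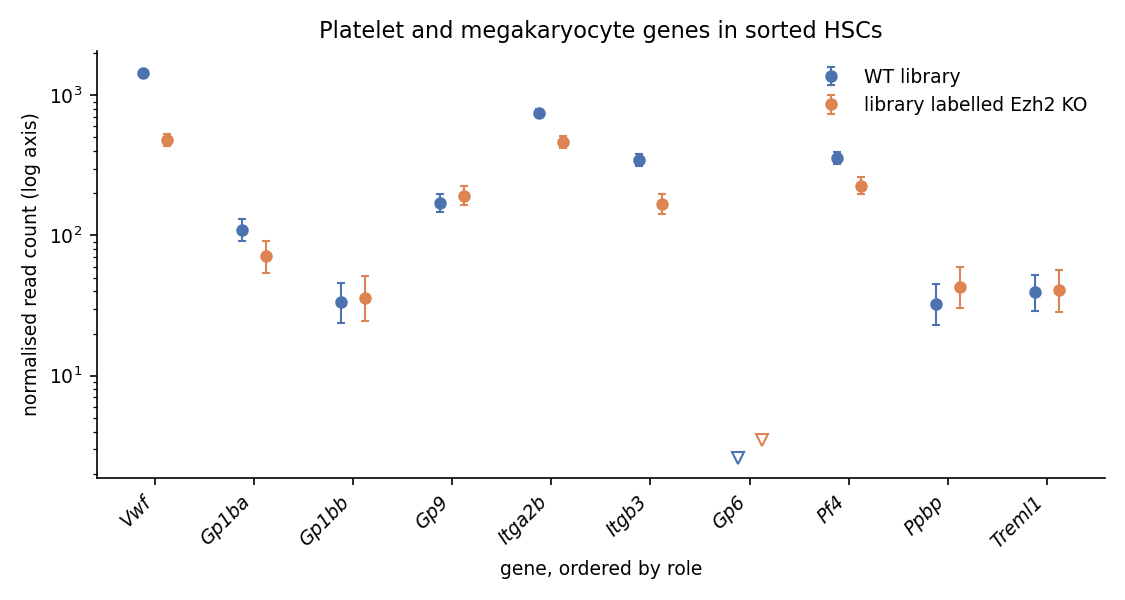
Normalised read counts (vertical log axis) of the 10 genes in the WT library and the KO-labelled library, with exact 95% Poisson intervals of the counts as bars. Open triangles mark the level of 3 counts for *Gp6*, which had 0 counts in both libraries. The points separate for *Vwf*, *Itga2b*, *Itgb3* and *Pf4*, and the bars overlap for *Gp1bb*, *Gp9*, *Ppbp* and *Treml1*.

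*Vwf* (chromosome 6, 125546774 to 125686679 in mm10, plus strand) encodes the ligand that ties platelets to collagen. It had 1677 counts in WT against 411 in the KO-labelled library (1439.1 and 478.9 after normalisation). The log2 ratio was -1.59 (-1.75 to -1.43), which left *Vwf* at 33.3% of its WT level. To set this beside genes of like abundance, the 500 genes nearest in mean normalised count were taken, and 90% of their log2 ratios lay between -0.38 and 0.28. None of those genes, 0 of 500, had a ratio as low as that of *Vwf*. *Cd9*, the nearest protein-coding gene on one side and itself expressed on platelets, had 920.8 and 941.6 normalised counts, while *Ano2*, 3740 bases away on the other side, had 0 counts in both libraries. By level *Vwf* stood above 95.7% of the genes tested in WT and above 79.7% in the KO-labelled library. *Vwf* alone held 43.9% of the summed counts in WT against 27.8% in the KO-labelled library. The 10 genes summed to 3278 normalised counts in WT and 1725 in the KO-labelled library, and without *Vwf* to 1839 and 1246, a log2 ratio of -0.56 (-0.67 to -0.46).

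The receptor for von Willebrand factor was not lower in all of its subunits. *Gp1ba* (chromosome 11, 70639122 to 70642036), whose product carries the ligand-binding site, had 128 counts in WT against 61 in the KO-labelled library (109.8 and 71.1 after normalisation). Its log2 ratio was -0.62 (-1.09 to -0.18), and of the 500 genes nearest in level 11.2% were as low or lower. *Gp9* (chromosome 6, 87778072 to 87779768), which encodes a small subunit needed for surface display of the complex, had 199 and 165 counts, or 170.8 and 192.3 normalised counts. The log2 ratio of *Gp9* was 0.17 (-0.14 to 0.48), an interval that excludes a 2-fold difference in either direction. *Gp1bb* (chromosome 16, 18620317 to 18622403), the subunit joined to *Gp1ba*'s product by a disulfide bond, had 39 and 31 counts (33.5 and 36.1 after normalisation) and a log2 ratio of 0.11 (-0.62 to 0.83). *Gp1bb* shares 1902 exonic bases with *Sept5* on the same strand in GENCODE M21, so its count is uncertain, and *Sept5* was given 14 and 12 counts. *Gp5*, the remaining subunit, was not among the 10 genes and is named after its value was seen, with 286.6 and 269.2 normalised counts (log2 ratio -0.09, -0.34 to 0.16). Within a library the count of *Gp1ba* per count of *Gp9* was 0.643 in WT and 0.370 in the KO-labelled library, a log2 change of -0.80 (-1.36 to -0.25) that needs no scaling between libraries.

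Both chains of the fibrinogen receptor were lower. *Itga2b* (chromosome 11, 102453297 to 102470122, minus strand) encodes the αIIb chain, known as CD41. It had 875 counts in WT against 401 in the KO-labelled library (750.9 and 467.3 after normalisation), with a log2 ratio of -0.68 (-0.86 to -0.51). It was not called at 2-fold, and 8 of the 500 genes nearest in level had a ratio as low. *Itgb3* (chromosome 11, 104608000 to 104670476, plus strand), which encodes the β3 chain shared with the vitronectin receptor, had 403 and 144 counts, or 345.8 and 167.8 normalised counts. Its log2 ratio was -1.04 (-1.33 to -0.77), close to the 2-fold limit, and 1 of the 500 nearest genes was as low. The count of *Itgb3* per count of *Itga2b* went from 0.461 to 0.359, a log2 change of -0.36 (-0.69 to -0.03). That interval only just excludes 0 and makes no allowance for PCR copies. *Gpatch8* beside *Itga2b* had 360.4 and 410.2 normalised counts, and *Myl4* beside *Itgb3* had 18 and 5 counts with an interval that included 0.

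Glycoprotein VI, the collagen receptor, was not detectable at this depth. *Gp6* (chromosome 7, 4363965 to 4397744) had 0 counts in each library, which allows up to 2.57 normalised counts in WT and 3.50 in the KO-labelled library. *Fcer1g*, which encodes the signalling chain that glycoprotein VI shares with Fc receptors, had 103.8 and 198.1 normalised counts, a log2 ratio of 0.93 (0.59 to 1.28) that missed the 2-fold limit. *Fcer1g* is also expressed in granulocytes, whose markers were higher in the same library, and it is named here after its value was seen.

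The alpha-granule genes differed among themselves. *Pf4* (chromosome 5, 90772435 to 90773383), which encodes platelet factor 4, a chemokine that binds heparin, had 415 counts in WT against 195 in the KO-labelled library (356.1 and 227.2 after normalisation). Its log2 ratio was -0.65 (-0.90 to -0.40), and 9 of the 500 genes nearest in level were as low or lower. *Ppbp* (chromosome 5, 90768518 to 90770063), which encodes the precursor of the neutrophil-attracting chemokine NAP-2, ends 2372 bases before *Pf4* on the same strand. *Ppbp* had 38 and 37 counts, or 32.6 and 43.1 normalised counts, and a log2 ratio of 0.39 (-0.29 to 1.10). The count of *Pf4* per count of *Ppbp* was 10.9 in WT and 5.27 in the KO-labelled library, a log2 change of -1.05 (-1.79 to -0.31) between neighbouring genes. *Cxcl5*, on the other side of *Ppbp*, had 0 counts in both. *Treml1* (chromosome 17, 48359916 to 48367176), which encodes the granule-membrane receptor TLT-1, had 46 and 35 counts (39.5 and 40.8 after normalisation) and a log2 ratio of 0.05 (-0.63 to 0.71). At these counts the log2 ratios inside those intervals could not be told apart, for either *Ppbp* or *Treml1*.

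**Figure D2:**
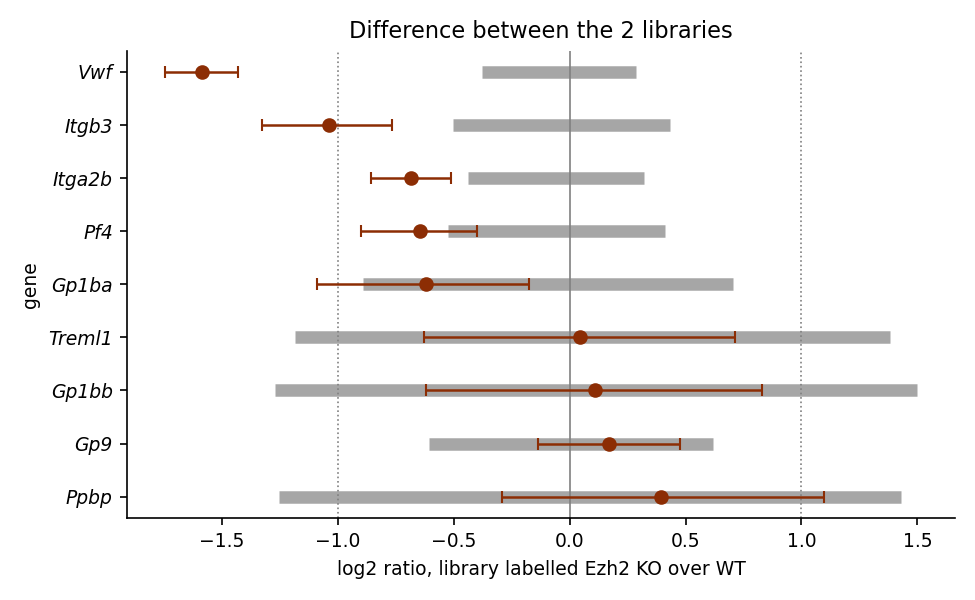
Log2 ratio of the KO-labelled library over WT (horizontal axis) for the 9 genes with counts, with 95% Clopper-Pearson intervals. Thick grey bars span the 5th to 95th percentile of the 500 genes nearest in mean level, and dotted lines mark 2-fold. *Vwf* at -1.59 and *Itgb3* at -1.04 lie beyond 2-fold, while *Gp9*, *Gp1bb*, *Treml1* and *Ppbp* lie above 0.

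**Figure D3:**
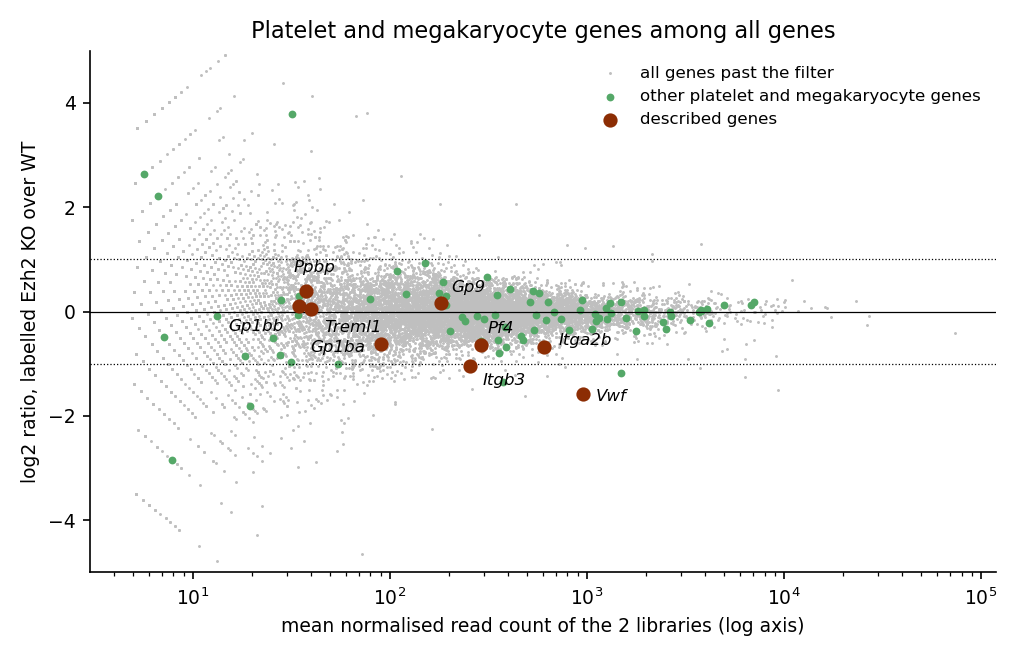
Mean normalised read count (horizontal log axis) against log2 ratio (vertical axis) of the 12588 genes tested in grey, other platelet and megakaryocyte genes in green and the 9 described genes in red; 18 genes lie outside the plotted range. *Vwf* sits below the cloud of genes of its level, and *Gp1bb*, *Treml1* and *Ppbp* lie where the cloud is wide.

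A ratio between the counts of a pair of genes in the same library does not depend on how libraries are scaled, so all 36 pairs of the 9 genes were compared. In 22 of the 36 the 95% interval of the change did not include 0 (intervals not adjusted for the number of pairs). The same share was not computed for pairs of other genes, so this count has no background beside it. For single genes, the interval lay below 0 in 20.8% and above 0 in 19.2% of all genes tested. *Vwf* was lower relative to each of the other 8 genes, from a log2 change of -0.54 (-0.87 to -0.22) against *Itgb3* to -1.99 (-2.70 to -1.28) against *Ppbp*. Among *Itga2b*, *Pf4* and *Gp1ba*, 0 of 3 intervals excluded 0. There were 2.11 and 2.06 counts of *Itga2b* per count of *Pf4* in WT and the other library, a log2 change of -0.04 (-0.34 to 0.27). The intervals against *Gp1ba* were wider, -0.54 to 0.44 for *Itga2b* and -0.54 to 0.51 for *Pf4*. Relative to *Gp9*, *Itga2b* was lower by a log2 change of -0.85 (-1.21 to -0.50) and *Pf4* by -0.82 (-1.22 to -0.42). Among *Gp9*, *Gp1bb*, *Treml1* and *Ppbp*, 0 of 6 intervals excluded 0. Pairs were ordered by the same ratios, so their common sign carries no information. These groups were also formed from those ratios, so likeness within a group is no separate result.

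**Figure D4:**
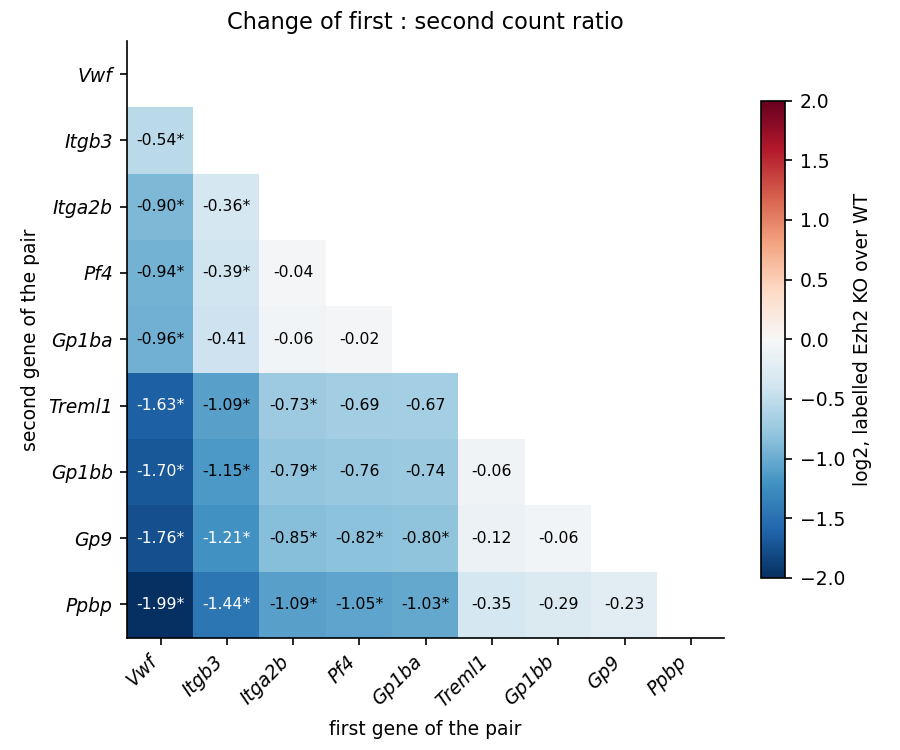
Change of the count ratio of the gene on the horizontal axis to the gene on the vertical axis, as log2 of the KO-labelled library over WT (colour scale), for the 36 pairs. An asterisk marks a 95% interval that does not include 0. The columns of *Vwf* and *Itgb3* are the darkest, and the block of *Itga2b*, *Pf4* and *Gp1ba* is near 0.

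Levels of different genes were compared as CPM per kilobase of exon (RPKM, computed here with exon lengths from GENCODE M21). In WT the order was *Pf4* (99.9), *Gp9* (39.2), *Itga2b* (27.8), *Vwf* (18.1), *Itgb3* (11.9), *Gp1ba* (8.17), *Ppbp* (6.09), *Treml1* (5.69) and *Gp1bb* (3.24). Neighbours in this order were separated beyond counting error except *Gp1ba* from *Ppbp* and *Ppbp* from *Treml1*. In the KO-labelled library, *Pf4* (65.1), *Gp9* (45.1) and *Itga2b* (17.7) still led. *Vwf* followed there with 6.15 RPKM, among *Ppbp* (8.22), *Treml1* (6.00), *Itgb3* (5.87) and *Gp1ba* (5.40), and no neighbours in that stretch, down to *Gp1bb* (3.57), were separated beyond counting error. The exons used for *Vwf* cover 16064 bases, against 721 for *Pf4* and 881 for *Gp9*, so *Vwf* led in counts but not per length.

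Promoters were examined for the letters bound by the GATA and ETS factors that drive megakaryocyte genes. RefSeq promoter sequences (GRCm38.p6, the mm10 assembly), 250 bases before to 50 after the start, were held for 8 of the 10 genes, without *Vwf* and *Itgb3*. The windows of *Pf4*, *Itga2b* and *Gp1ba*, which lay at a like fraction of WT, are shown with that of *Gp9*, which did not. Capitals mark, on either strand, only the form AGATAA of the GATA motif and the ETS motifs, written CCGGAA for one form and AGGAAG for the other. They lie at chr5:90772185-90772484 (plus strand), chr11:102469834-102470133 (minus strand), chr11:70638872-70639171 (plus strand) and chr6:87777820-87778119 (plus strand).
Pf4: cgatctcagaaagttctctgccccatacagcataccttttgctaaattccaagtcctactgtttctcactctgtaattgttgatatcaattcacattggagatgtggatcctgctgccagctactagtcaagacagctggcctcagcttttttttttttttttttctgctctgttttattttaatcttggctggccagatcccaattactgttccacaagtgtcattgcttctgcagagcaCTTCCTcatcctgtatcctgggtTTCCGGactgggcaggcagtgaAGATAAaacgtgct
Itga2b: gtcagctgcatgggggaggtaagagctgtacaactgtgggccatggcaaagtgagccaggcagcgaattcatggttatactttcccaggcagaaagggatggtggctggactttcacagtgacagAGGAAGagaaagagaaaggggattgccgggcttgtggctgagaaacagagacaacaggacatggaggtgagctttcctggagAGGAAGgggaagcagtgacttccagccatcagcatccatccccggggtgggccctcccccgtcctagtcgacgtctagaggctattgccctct
Gp1ba: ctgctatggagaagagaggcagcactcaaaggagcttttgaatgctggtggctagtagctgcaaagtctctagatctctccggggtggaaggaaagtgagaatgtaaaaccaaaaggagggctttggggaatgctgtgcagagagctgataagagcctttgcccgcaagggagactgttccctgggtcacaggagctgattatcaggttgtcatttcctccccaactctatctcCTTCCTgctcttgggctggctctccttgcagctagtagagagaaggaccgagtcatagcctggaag
Gp9: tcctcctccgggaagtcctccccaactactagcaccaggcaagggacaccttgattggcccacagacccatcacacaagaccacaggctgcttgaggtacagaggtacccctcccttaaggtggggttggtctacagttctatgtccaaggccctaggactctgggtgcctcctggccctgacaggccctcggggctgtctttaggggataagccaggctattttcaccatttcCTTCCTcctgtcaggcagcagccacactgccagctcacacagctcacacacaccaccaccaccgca

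AGATAA occurred in 2 of the 8 windows, those of *Pf4* and *Gp6*, and in 11.2% of all 32851 promoter windows of the same length. Other forms of the GATA motif, such as the TGATAA in the printed window of *Gp1ba*, were neither marked nor counted. At least 1 of the ETS motifs occurred in 5 of the 8, those of *Pf4*, *Itga2b*, *Gp1ba*, *Gp9* and *Gp1bb*, and in 45.2% of all windows (AGGAAG alone in 35.4%). The start used for *Itga2b* lies inside the gene as GENCODE M21 places it, and so do both of its AGGAAG matches. No matches overlapped in these 8 windows. The ETS letters in *Gp1ba* and *Gp9* began at the same distance, 16 bases before the start. A match to these letters is not a bound site, and their relation to the levels was not tested.

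Other genes of the platelet and megakaryocyte programme were read from 6 lists of 89 genes, all of them in the files. Of 81 that passed the filter, 5 (6.17%) were called lower and 3 (3.70%) higher, beside 3.27% and 4.09% of all genes. Their median log2 ratio was -0.06.

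The list of platelet agonist and growth factor receptors had the lowest median of the 6 lists, -0.48. Of its genes 7 of 9 lay below 0, beside 50.4% of all genes tested. Its summed level was 2176 CPM in WT and 2071 CPM in the KO-labelled library. *F2r*, the thrombin receptor PAR1, which mouse platelets do not use to sense thrombin, had 2079.3 normalised counts in WT against 918.3 and was called lower, with a log2 ratio of -1.18 (-1.30 to -1.06). *F2rl2*, which encodes PAR3, the thrombin cofactor receptor of mouse platelets, had 36 and 7 counts and was called lower (log2 ratio -1.80, -3.33 to -0.73). *Ptgir*, the prostacyclin receptor, was called higher on 1 and 9 counts (2.63, 0.76 to 9.07).

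Transcription factors of the lineage showed no called member among 17, and their median log2 ratio was -0.01. *Lmo2*, a bridging partner of GATA complexes, had 6561.4 and 7160.8 normalised counts, and *Nfe2*, the factor needed for platelet release, had 4047.0 and 4161.3 (log2 ratio 0.04, -0.02 to 0.10). *Gata1*, named after its value was seen, was low in both, with 44 and 34 counts.

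The adhesion list held no called gene among 12 tested, with a median of 0.03. Its most abundant members were *Itgb1*, the β1 integrin chain, with 1924.0 and 1972.9 normalised counts, and *Selp*, the granule adhesion receptor P-selectin, with 2017.5 and 1561.5. Of 14 genes of integrin activation, median 0.05, *Src*, a kinase bound to the β3 tail, was called lower with 73.8 and 36.1 normalised counts (log2 ratio -1.01, -1.67 to -0.42). *Src* lay at the 2-fold limit and was not called under total-count scaling, a pseudocount of 5 or thinning. The integrin activators *Tln1* (4513.0 and 3867.7) and *Fermt3* (3769.8 and 3853.7) were the most abundant there, with log2 ratios of -0.22 and 0.03.

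Granule genes had a median of -0.12 over 12 tested, and their most abundant members *Angpt1* (4789.3 and 5208.9 normalised counts) and *Srgn* (3802.4 and 3822.2) had log2 ratios of 0.12 and 0.01. *Thbs1*, thrombospondin, was called higher on 4 and 52 counts (3.80, 2.70 to 6.07), and *Pdgfa*, a growth factor chain, was called lower on 17 and 1 counts (-2.85, -9.03 to -0.97). The cytoskeleton and maturation list had a median of -0.19, with 13 of 17 below 0, beside 50.4% of all genes tested. Its called genes were *Sdpr* (Cavin2), a caveola component, at 538.9 and 210.9 normalised counts (-1.35, -1.60 to -1.11), and *Gucy1b3*, a guanylate cyclase chain, at 2 and 10 counts (2.22, 0.53 to 5.99). *Flna*, the filamin that anchors the GPIb complex, had 2807.0 and 2239.7, and *Tuba4a* 2618.2 and 2292.2. *Tubb1*, the tubulin of platelets, is named after its value was seen and had 28 and 11 counts, with an interval that included 0. Over the 6 lists 4 genes, *Cd226*, *Cxcl5*, *Adra2a* and *Myl9*, had 0 counts in both libraries.

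**Figure D5:**
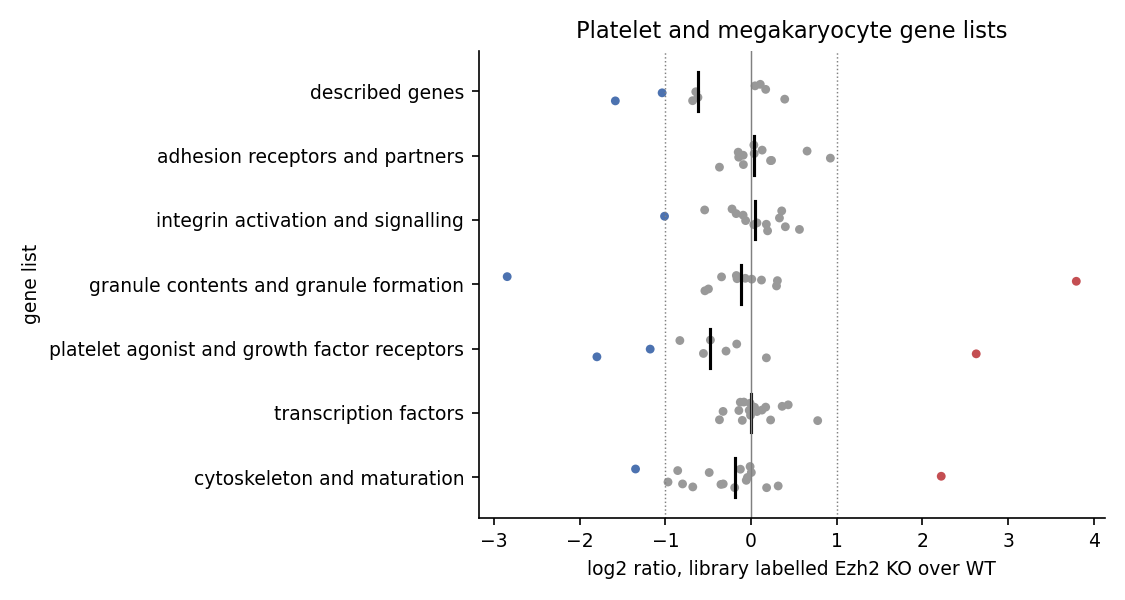
Log2 ratio of the KO-labelled library over WT (horizontal axis) of each gene past the filter, by list (vertical axis), with black bars at the medians, blue for genes called lower, red for genes called higher and dotted lines at 2-fold. The 9 described genes past the filter lead with a median of -0.62, the agonist receptors follow at -0.48, and the transcription factors centre on -0.01.

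Markers of other cells differed between the libraries. Eosinophil genes summed to 2.08 CPM in WT, with 6 of 9 at 0 there, and to 782 CPM in the KO-labelled library. Neutrophil genes summed to 1434 and 3332 CPM, with 7 of 10 called higher. Erythroid genes summed to 167 and 299 CPM, with 6 of 13 called higher. B lymphoid genes summed to 48.4 and 101 CPM, with 7 of 11 at 0 in WT and 5 called higher. Monocyte and macrophage genes summed to 527 and 652 CPM, with 3 of 10 called higher and *Csf1r* called lower, and mast cell and basophil genes to 754 and 771 CPM, nearly all of it *Gata2*, which HSCs also express. The mast cell genes *Ms4a2*, *Cma1* and *Mcpt4*, the B lymphoid genes *Rag1* and *Ms4a1* and the monocyte gene *Cx3cr1* had 0 counts in both libraries. All 10 platelet genes together summed to 663 CPM in WT and 356 CPM in the other library. In bulk RNA, fewer cells expressing a gene and less of its RNA per cell cannot be told apart, and the part of these other cells in the platelet results was not tested.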

How the data were processed

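Counts of reads per gene were used from 1 WT library and 1 library labelled Ezh2 KO, grouped by the genotype in the labels. The authors deposited raw counts without normalisation. Their methods give single-end alignment to mm10 with TopHat2 2.0.13 and Bowtie2 2.1.0 with the iGenomes annotation, and StringTie was named for the counts. The 5 closing entries of each file, with names that htseq-count writes, hold no gene and were left out (56.1% and 56.9% of all entries). The counting program and its use of strand were not settled by these sources.

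Scaling used DESeq2 1.42.0 (named in the study's methods) in R 4.3.3, whose median-of-ratios size factors were 1.17 and 0.858. Log2 ratios were formed from the normalised count plus 1, and intervals are 95% Clopper-Pearson intervals of the share of the 2 raw counts. Genes with a mean of at least 1 CPM were called at 2-fold with the interval on the same side of 0. With 1 library per group no spread can be estimated, so no test of the conditions was run and p-values are not given. The procedure was tested on simulated data that held counting error and no spread between animals. Positions, exon lengths and neighbours came from GENCODE M21 (GRCm38), in which 24026 of 24421 symbols were found. Intervals were computed in scipy 1.17.1 (Python 3.11.15), figures in matplotlib 3.10.9, and alternatives with edgeR 4.0.16.

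The 10 genes, the lists and the rules were chosen with earlier results of these data known. Besides the 10 genes and *Ezh2*, the genes named are, from each of the 6 lists, those called and the 2 most abundant, the neighbours or overlapping genes that bear on one of the 10, and, of the marker lists, those called or at 0 where it matters. Sex-linked genes were added as a check of the libraries. Some genes that this rule would name are not reported here. Alternatives covered scaling, pseudocount, filter, fold, thinning of WT to the other total, the genes used for size factors and an edgeR exact test with an assumed coefficient of variation (CV).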

Additional observations from a re-analysis of the deposited data

How the results depend on the processing

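No paired analysis was possible because there is only 1 WT and 1 KO-labelled library, and no replicate could be left out. *Vwf* and *Itgb3* were the 2 genes called lower, and 0 of the 10 higher, under TMM, total-count scaling, size factors without X, Y and marker genes (which left the factors at 1.17 and 0.858), pseudocounts of 0.5 and 5, thinning, no filter, a filter of 10 CPM and the fold alone. The log2 ratio of *Vwf* ranged from -1.59 to -1.56 and that of *Itgb3* from -1.07 to -1.01, and the median of the 9 genes (6 with the 10 CPM filter) from -0.66 to -0.58. The threshold mattered more. A 1.5-fold limit called 5 of the 10 genes lower, adding *Itga2b*, *Pf4* and *Gp1ba*, with 9 genes of the 6 lists lower and 6 higher, and 926 and 963 of all genes. A 4-fold limit called 0 of the 10, 1 list gene lower (and 3 higher), and 116 and 198 of all genes. With an assumed CV of 0.2 between libraries 0 of the 10 were called, with 0 list genes lower and 1 higher (*Thbs1*), and 22 and 41 of all genes. With a CV of 0.4 the numbers were 0, 0 and 0, and 2 and 8 of all genes. The CVs were assumed, not measured. The 10 CPM filter left 3 list genes lower and 0 higher, and 115 and 96 of all genes, by its construction without the weakly counted ones. *Src* was not called under total-count scaling, a pseudocount of 5 or thinning. The shorter letters GATA were in 7 of the 8 promoter windows and GGAA in 8, beside 57.9% and 96.0% of all windows. Depth limited *Gp1bb*, *Ppbp*, *Treml1* and *Gp6*, with at most 46 counts in a library.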
